A study of Mus musculus with 9 samples.

Results

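The catecholamine and sympathetic genes described here are 9 genes picked by name from a table of FPKM values (fragments counted for a gene, scaled by its length and by the library total) with 21989 genes: the synthesis enzymes Th, Ddc and Dbh, the transporters Slc18a2 and Slc6a2, the transcription factors Phox2a and Hand2, and the chromogranins Chga and Chgb. All 9 were found, each in a single row. They were read library by library in 9 RNA sequencing libraries of mouse aortic arch. The 3 high dose libraries came from ApoE-/- mice on a high-fat diet for 15 weeks, gavaged with ZCL at 5.12 g/kg/day. The 3 model libraries came from ApoE-/- mice on the same diet without ZCL. C57BL/6J mice fed a standard diet gave the 3 control libraries, so genotype and diet differ together from control in both ApoE-/- groups. Whether each library is its own animal is not in the labels, and p-values therefore describe the spread between these libraries alone, which may be technical.

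Noradrenaline is made from tyrosine in postganglionic sympathetic neurons, whose axons run in the adventitia of arteries and drive contraction of the smooth muscle. TH makes DOPA, DDC turns it into dopamine, the vesicular transporter encoded by Slc18a2 loads dopamine into vesicles, and DBH makes noradrenaline there. The transporter encoded by Slc6a2 takes released noradrenaline back into the neuron. PHOX2A and HAND2 are factors that establish the noradrenergic fate, and HAND2 is also a factor of the developing heart. The messenger RNA of these enzymes lies mainly in the cell bodies of ganglia, which lie outside the vessel wall, while the chromogranins are cargo of dense-core vesicles in many neuroendocrine cells.

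Relative depth, read from the steps between FPKM values under 0.2, ran from 56.3% of the deepest library in control 2 to 100% in model 1. At that depth the values of each of the 9 genes were proportional to whole fragments within 0.002 of a fragment, so the number of fragments behind every value is known up to a common factor of the gene. Smooth muscle markers were present in all libraries, with Acta2 between 177 FPKM in high dose 1 and 1857 in model 1. Libraries differed strongly in genes of neighbouring tissues. Of heart muscle, 10 genes summed to 10206 FPKM in high dose 2, 17408 in high dose 3, 29145 in control 1 and 7783 in control 2, while the other 5 libraries held 28.4 to 89.1. Of airway epithelium, 8 genes summed to 30068 FPKM in high dose 2 and 7912 in control 2, with at most 95.4 elsewhere. Skeletal muscle genes summed to 8999 FPKM in high dose 2 and 15.4 to 399 elsewhere, and brown fat genes to 4030 FPKM in high dose 1, 12078 in control 3 and 794 to 2702 elsewhere. The part of these tissues in the values below was not tested. In tissue RNA, fewer cells of a type and less RNA per cell cannot be told apart.

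The 9 genes together made up 0.637%, 0.0205% and 0.00664% of summed FPKM in high dose 1, 2 and 3. In model they made up 0.00162%, 0.000261% and 0.000896%, and in control 0.0129%, 0.125% and 0.0352%. High dose 1 was therefore the highest library, control 2 and control 3 followed, and the 3 model libraries were the lowest. Of the 9 genes, 9, 7 and 4 reached 1 FPKM in high dose 1, 2 and 3, against 1, 0 and 0 in model 1, 2 and 3, while 8, 9 and 9 did so in the control libraries. The library of highest level was high dose 1 for every one of the 9 genes.

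**Figure D1:**
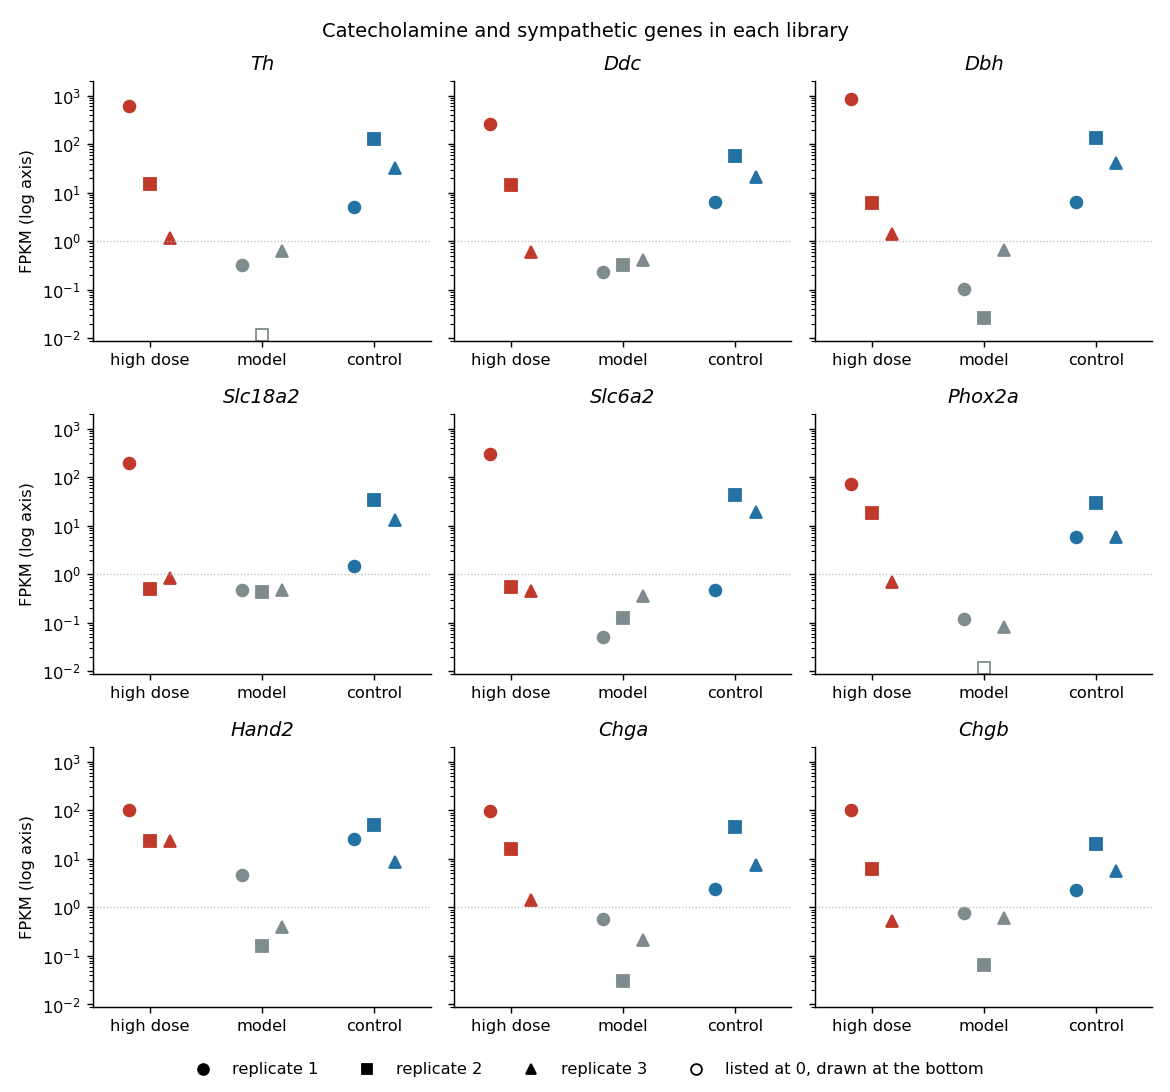
FPKM of the 9 genes in each library on a log axis, with high dose, model and control from left to right, a marker shape for each replicate number and a dotted line at 1 FPKM. High dose 1 is the highest library in every panel, and model libraries stay under 1 FPKM except for Hand2 in model 1 at 4.55 FPKM.

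Th, the rate-limiting enzyme of the pathway, at chr7:142892752-142931128 on the minus strand, stood at 599.8, 15.4 and 1.15 FPKM in high dose 1, 2 and 3, against 0.323, 0 and 0.644 in the model libraries and 5.17, 128 and 32.6 in the control libraries (positions in GRCm38, GENCODE M21). Model 2 held 0 fragments of Th, which allows up to 3 fragments or 0.09999 FPKM, and model 1 and 3 held 12 and 17. All 3 model libraries lay below the other 6, while high dose and control overlapped. High dose 1 held 17192 fragments of Th. Th ranked 70th among all genes in high dose 1 and 515th in control 2.

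Dbh, which makes noradrenaline from dopamine, at chr2:27165233-27183200 on the plus strand, stood at 839, 6.23 and 1.45 FPKM in the high dose libraries, against 0.104, 0.0257 and 0.671 in model and 6.33, 131 and 41.1 in control. The model values rest on 5, 1 and 23 fragments. Dbh was the highest of the 9 genes in high dose 1, control 2 and control 3, and ranked 39th of all genes in high dose 1. Ddc, the decarboxylase that serotonin synthesis also uses, at chr11:11814101-11898144 on the minus strand, stood at 259, 14.5 and 0.591 FPKM in high dose, against 0.237, 0.318 and 0.418 in model and 6.37, 56.9 and 21.5 in control. In high dose 3 it lay only just above the highest model library, at 21 fragments. Th, Ddc and Dbh kept the same order of the 3 control libraries, with control 2 highest and control 1 lowest.

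The windows around the start sites were searched for the cyclic AMP response element, a promoter element known from Th. Its full octamer TGACGTCA, which reads the same on both strands, was found in the windows of 3 of the 8 genes that have one in the RefSeq table used (GRCm38.p6, 250 bases before to 50 after the start), namely Th, Chgb and Slc18a2. Of all 32851 windows of that length, 1.79% held it. These windows and that of Dbh, which held none, are shown from 200 bases before to 30 after the start, 5′ to 3′ on the gene's own strand, with the octamer in capitals, because they set the gene pair of highest level, Th and Dbh, beside the other carriers.
Th, chr7:142899966-142900195, minus strand: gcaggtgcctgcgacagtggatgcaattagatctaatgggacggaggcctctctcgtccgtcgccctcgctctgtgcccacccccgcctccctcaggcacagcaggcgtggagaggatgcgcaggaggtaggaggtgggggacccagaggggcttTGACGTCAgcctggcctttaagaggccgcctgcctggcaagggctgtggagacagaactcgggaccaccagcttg
Dbh, chr2:27165307-27165536, plus strand: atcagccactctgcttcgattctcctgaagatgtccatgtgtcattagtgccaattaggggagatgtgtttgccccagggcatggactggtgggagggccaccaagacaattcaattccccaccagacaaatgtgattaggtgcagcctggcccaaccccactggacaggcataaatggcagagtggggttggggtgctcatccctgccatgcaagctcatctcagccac
Slc18a2, chr19:59260678-59260907, plus strand: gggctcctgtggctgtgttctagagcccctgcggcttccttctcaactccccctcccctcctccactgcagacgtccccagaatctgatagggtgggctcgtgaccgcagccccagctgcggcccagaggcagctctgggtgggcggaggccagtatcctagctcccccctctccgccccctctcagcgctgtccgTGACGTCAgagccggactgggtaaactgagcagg
Chgb, chr2:132781442-132781671, plus strand: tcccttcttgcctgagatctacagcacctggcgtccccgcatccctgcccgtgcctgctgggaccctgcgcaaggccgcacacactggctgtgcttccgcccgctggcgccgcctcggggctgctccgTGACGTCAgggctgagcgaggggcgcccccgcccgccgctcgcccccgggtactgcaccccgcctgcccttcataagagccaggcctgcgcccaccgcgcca
The octamer began 45 bases before the start of Th, 72 before that of Chgb and 4 before that of Slc18a2. These are RefSeq starts, which differ from the ends of the GENCODE spans given for the same genes. The GENCODE span of Th, on the minus strand, begins at 142931128, outside the stretch shown. The half-site TGACG, which the octamer contains on each strand, was found in 6 of the 8 genes, the 3 carriers of the octamer and Chga, Hand2 and Dbh, against 20.8% of all windows. The E-box CANNTG was found in 7 of the 8 genes, all but Ddc, against 72.3% of all windows, and a palindromic homeodomain motif of PHOX2 factors in 0 of the 8, against 0.487% of all windows. These are matches of letters and not measured sites.

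Slc18a2, the vesicular monoamine transporter, at chr19:59260896-59296012 on the plus strand, stood at 195, 0.508 and 0.849 FPKM in the high dose libraries, against 0.485, 0.431 and 0.473 in model and 1.47, 33.2 and 13.2 in control. Slc6a2, the noradrenaline transporter, at chr8:92960079-93001667 on the plus strand, stood at 297, 0.559 and 0.451 FPKM in high dose, against 0.0516, 0.128 and 0.353 in model and 0.475, 43.5 and 19.3 in control. High dose 1, control 2 and control 3 were thus the 3 highest libraries for both transporters, and the other 6 stayed at or below 1.47 FPKM. In high dose 2, where Th was at 15.4 FPKM, both lay close to the model libraries, at 28 fragments of Slc18a2 and 52 of Slc6a2. For Slc6a2 the nearest libraries of model and control were model 3, at 34 fragments, and control 1, at 49.

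Phox2a, a homeodomain factor of autonomic neurons that activates Dbh, at chr7:101818313-101822726 on the plus strand, stood at 72.2, 18.2 and 0.711 FPKM in high dose, against 0.118, 0 and 0.0828 in model and 5.76, 29.2 and 5.93 in control. High dose libraries held 1896, 424 and 17 fragments of it, model libraries 4, 0 and 2, and control libraries 149, 558 and 124. Unlike the transporters, Phox2a in high dose 2 lay above control 1 and control 3. Hand2, at chr8:57320983-57324633 on the plus strand, stood at 103, 23.5 and 23.5 FPKM in high dose, against 4.55, 0.157 and 0.387 in model and 25.1, 50.5 and 8.54 in control. It was the only one of the 9 genes above 1 FPKM in a model library. In high dose 3, Hand2 had 781 fragments where Th had 30, and in that library heart muscle genes summed to 17408 FPKM. Among the 5 libraries low in heart muscle genes, Hand2 was at 103 FPKM in high dose 1, 0.157 to 4.55 in model and 8.54 in control 3.

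Chga, which encodes chromogranin A and lies at chr12:102554969-102565028 on the plus strand, stood at 98.8, 16.1 and 1.44 FPKM in high dose, against 0.570004, 0.0307 and 0.209 in model and 2.38, 46.2 and 7.37 in control. Chgb, which encodes chromogranin B and lies at chr2:132781278-132795079 on the plus strand, stood at 102, 6.06 and 0.517 FPKM in high dose, against 0.762, 0.0643 and 0.609 in model and 2.32, 20.3 and 5.52 in control. Chgb was the exception to the order of high dose and model, since high dose 3 held 21 fragments of it at 0.517 FPKM and lay below model 1 and model 3. Of the 9 genes, Ddc and Slc18a2 overlap an antisense transcript of the opposite strand in GENCODE M21, Phox2a overlaps the gene Inppl1 and Hand2 overlaps Hand2os1. The strand setting of the authors' counting is not given in the sources used here, so reads of these pairs could not be told apart.

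The comparison of high dose with model asks what ZCL did where genotype and diet were equal. Every high dose library lay above every model library in 8 of the 9 genes, all but Chgb, where 11.7% of the 12895 genes tested were higher and 10.9% lower without overlap. Some of these gaps lie within counting error, taking fragments as the smallest whole numbers. The 95% limits of Slc18a2 were 0.337 to 0.734 FPKM in high dose 2 and 0.345 to 0.664 in model 1. Limits of Slc6a2, Ddc and Th in high dose 3 also overlapped those of model 3, while Dbh, Phox2a, Hand2 and Chga had no such overlap. All 9 genes passed the filter for testing, 1 FPKM in at least 3 libraries, and only Hand2 reached that level in a model library, so the filter itself selects genes high in the other groups. By limma over all 12895 genes, 0 of the 9 genes passed an adjusted p of 0.05, as did 0% of all genes, while 5 of the 9 had an unadjusted p under 0.05 and were higher, against 6.86% of all genes higher and 6.55% lower. The genes share their libraries and do not count as independent. Hand2 had the smallest p, with a mean of 49.99 ± 45.9 FPKM in high dose and 1.70 ± 2.47 in model (SD, n = 3 each), a log2 difference of 4.26 ± 0.844 (SE) and a limma adjusted p = 0.172. Th averaged 205 ± 342 FPKM in high dose and 0.323 ± 0.322 in model, with a log2 difference of 4.42 ± 1.84 and a limma adjusted p = 0.362. The median log2 difference of the 9 genes was 3.69, beside 0.00080 for all genes tested.

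Leaving out high dose 1 lowered the difference of all 9 genes. Without it the log2 difference between high dose and model was 2.20 for Th, 1.77 for Dbh and 1.91 for Ddc, where all libraries gave 4.42, 4.31 and 3.81. The transporters were at 0.19 for Slc18a2 and 0.36 for Slc6a2 without high dose 1, against 2.48 and 2.91 with it. Chgb had 1.18 without it and 2.84 with it, Chga 2.37 and 3.69, and Phox2a 2.43 and 3.65. Hand2 was moved least, at 3.56 without high dose 1 and 4.26 with it. Without high dose 3, Phox2a had a log2 difference of 5.14 and a limma adjusted p = 0.0490, and no other of the 9 genes passed in this comparison under any left-out library. In that fit 46 of the 12895 genes tested passed.

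The comparison of model with control asks what the 2 differences between these mice, genotype and diet, did jointly. Every model library lay below every control library in all 9 genes, where 9.06% of the 12895 genes tested were lower and 6.91% higher without overlap. For Slc6a2 the 95% counting limits of model 3, 0.244 to 0.493 FPKM, overlapped those of control 1, 0.352 to 0.628. Limma called 0 of the 9 genes at an adjusted p under 0.05, as it called 0% of all genes, while 6 of the 9 had an unadjusted p under 0.05 and were lower, against 2.75% of all genes lower and 3.62% higher. The exceptions at that level were Slc18a2, Slc6a2 and Chgb. Th averaged 0.323 ± 0.322 FPKM in model and 55.1 ± 64.2 in control (SD, n = 3 each), with a log2 difference of -4.53 ± 1.84 (SE) and a limma adjusted p = 0.746. Dbh averaged 0.267 ± 0.352 FPKM in model and 59.6 ± 64.5 in control, with a log2 difference of -4.80 ± 1.95 and a limma adjusted p = 0.746. Hand2 averaged 1.70 ± 2.47 FPKM in model and 28.0 ± 21.1 in control, with -3.50 ± 0.844 and a limma adjusted p = 0.688. The median log2 difference of the 9 genes was -3.40, beside -0.010 for all genes tested. Of the macrophage markers, 4 of 4 were higher in model without overlap, against 6.91% of all genes tested, and 0 of the 4 passed limma at an adjusted p under 0.05, with sums of 4717, 3123 and 1049 FPKM in model and 242, 614 and 157 in control, and their part in the result was not tested. High dose against model and model against control share the model libraries, so their values for the 9 genes are not independent of each other.

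Within control, the spread was itself wide. Control 2 held 24.7 times the Th of control 1 and 91.6 times its Slc6a2, while control 3 held 6.31 and 40.5 times. Leaving out control 2 moved Th between model and control to -3.47, Slc6a2 to -2.22 and Slc18a2 to -2.02, where all libraries gave -4.53, -3.23 and -2.86. Without control 1, Slc6a2 moved to -4.68. No left-out library made the groups overlap in any of the 9 genes. With array weights, which gave model 2 a weight of 5.92 and control 3 one of 0.379, Hand2 and Phox2a passed at log2 differences of -4.29 and -3.18 and limma adjusted p = 0.0280 and 0.0484. The same fit called 684 of the 12895 genes tested.

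High dose and control overlapped in all 9 genes, so 0 were without overlap, where 3.66% of all genes tested were higher and 5.02% lower without overlap. By limma 0 of the 9 genes passed, as did 0% of all genes, and 0 had an unadjusted p under 0.05, against 5.44% of all genes, 2.64% higher and 2.8% lower. Th averaged 205 ± 342 FPKM in high dose and 55.1 ± 64.2 in control, with a log2 difference of -0.11 ± 1.84 (SE) and a limma adjusted p = 0.994. Slc6a2 averaged 99.4 ± 171 FPKM in high dose and 21.1 ± 21.6 in control, with -0.33 ± 2.01. For Th and Slc6a2 the mean FPKM was higher in high dose while the log2 difference was negative, with high dose 1 far above the other 2 high dose libraries. Without high dose 1 the differences ran from -3.03 for Dbh to 0.065 for Hand2, and Dbh and Slc18a2 were then lower in high dose without overlap, as were 13.4% of all genes tested. Standard errors of 0.844 to 2.01 leave log2 differences of several units in either direction undetected.

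**Figure D2:**
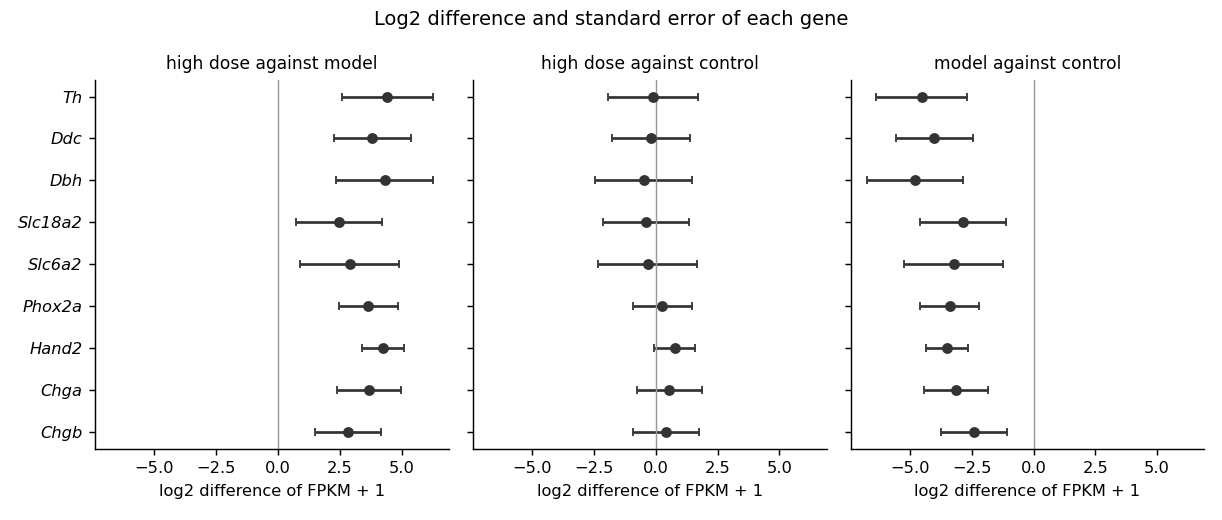
Log2 difference of FPKM + 1 for each of the 9 genes in the 3 comparisons, as points with standard error bars from the limma fit of 9 libraries. High dose lies above model by 2.48 to 4.42, model against control runs from -4.80 to -2.42, and high dose against control runs from -0.49 to 0.76 with error bars that include 0 for 9 genes.

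The proportions of the genes to each other were not the same in all libraries. Relative to Th, in the 5 libraries with at least 5 FPKM of Th, Slc6a2 stood at 49.6% in high dose 1, 34.1% in control 2 and 59.0% in control 3. In high dose 2 it stood at 3.62% of Th and in control 1 at 9.19%. Hand1, a relative of Hand2 found in sympathetic neurons, divided the libraries the same way, with 51.6, 0 and 0.284 FPKM in high dose, 0 in all model libraries and 0.0328, 13.7 and 5.88 in control. Phox2a had the opposite proportion, at 118% of Th in high dose 2 and 111% in control 1, against 12.0%, 22.9% and 18.2% in high dose 1, control 2 and control 3. High dose 2 and control 1 held the least Th of the 5, so a gene that varied less than Th stands high relative to it there. The neuron marker Prph stood at 438% and 442% of Th in them, against 54.3%, 92.4% and 69.2% in high dose 1, control 2 and control 3. Chga stood at 104% of Th in high dose 2 and 46.0% in control 1, with 16.5% to 36.2% in high dose 1, control 2 and control 3. Dbh was at 40.4% of Th in high dose 2, with 103% to 139.9% for the remaining 4 libraries.

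Genes of cholinergic neurons, which use acetylcholine in place of noradrenaline, were highest relative to Th in high dose 2 and control 1. These held the least Th of the 5 libraries with at least 5 FPKM of Th. Slc18a3, the vesicular acetylcholine transporter, stood at 0.305, 14.03 and 0 FPKM in high dose, 0 in all 3 model libraries, and 3.82, 3.06 and 0 in control. Chat, the enzyme that makes acetylcholine, stood at 0, 2.97 and 0 FPKM in high dose and at 0.9303, 0.658 and 0 in control. Slc5a7, the choline transporter, stood at 0.182, 5.92 and 0 FPKM in high dose and 5.56, 3.304 and 0 in control. Slc18a3 reached 90.9% of Th in high dose 2 and 73.8% in control 1, and 2.40% in control 2. The neuropeptide gene Cartpt stood at 0.3503, 55.98 and 0 FPKM in high dose and 10.4, 19.4 and 0 in control, which is 363% of Th in high dose 2, 201% in control 1 and 15.2% in control 2. Isl1, a factor of autonomic neurons, stood at 98.2% of Th in high dose 2 and 44.9% in control 1, against 4.07%, 9.05% and 8.07% in high dose 1, control 2 and control 3. High dose 2, control 1 and control 2 were also among the 4 libraries with heart muscle genes. High dose 3, the remaining one of the 4, held 0 fragments of Chat, Slc18a3 and Slc5a7. The part of heart muscle in these values was not tested.

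**Figure D3:**
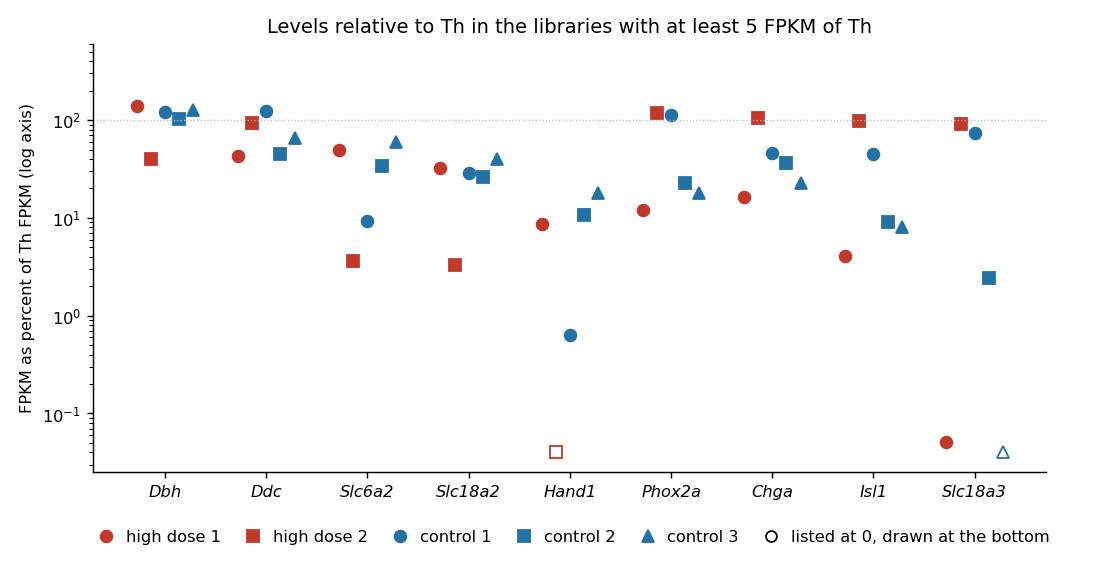
FPKM of 9 genes as a percent of the FPKM of Th, on a log axis, in the 5 libraries with at least 5 FPKM of Th, with red for high dose and blue for control. Slc6a2 and Hand1 are lowest in high dose 2 and control 1, which hold the least Th of the 5, while Phox2a, Isl1 and Slc18a3 are highest there.

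Likeness across libraries was measured by Pearson r of log2(FPKM + 1), as a description over 9 libraries, in which high dose 1 is the highest for all 9 genes. Among the 28 pairs of the 9 genes that leave out Hand2, r ran from 0.806 to 0.996, and without high dose 1 from 0.667 to 0.990. The 8 pairs with Hand2 had r from 0.646 to 0.851, and from 0.460 to 0.791 without high dose 1. Among 10691 genes with at least 5 FPKM in a library, those most like Dbh included Syt4, a synaptotagmin of vesicles, at r = 0.990 (Spearman rho 0.933) and Rit2, a neuronal small GTPase, at 0.981. Sqle, squalene epoxidase of cholesterol synthesis, Scg2, a granin, Tm4sf4, the synaptotagmin gene Syt9 and the neuronal RNA-binding gene Elavl2 followed at 0.980 to 0.966. Over the 8 libraries without high dose 1, Syt4, Rit2, Sqle and Scg2 were again among the first 8, at r of 0.983 to 0.951, beside Zwint, Cdc26 and Cplx2. Syt4 stood at 137, 3.15 and 0.171 FPKM in high dose, 0.253, 0.0746 and 0.305 in model and 2.03, 27.9 and 8.195 in control. The genes most like Hand2 were Spata7 and Coprs, at r of 0.966 and 0.965, followed by Ndrg4, Prune2, Tbcel, Atp1b1, Ngfrap1 and Nt5dc2, at 0.951 to 0.940.

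Other genes of the pathway were read from 8 lists with 55 genes, of which 42 were tested and 0 passed limma at an adjusted p under 0.05 in any comparison. High dose was above model without overlap in 13 of the 42 and below in 1, where the shares of all genes tested were 11.7% and 10.9%. Some of these gaps lie within counting error, as for Gal, at 1 fragment in high dose 3 and 1 in model 3. Several of the 42, among them Pnmt, Gal, Sst, Pcsk2 and Adra2c, stayed under 1 FPKM in every model library. The filter thus selects here too for genes high in the other groups, and the counts of both comparisons with model carry that limit. Model was below control without overlap in 20 of the 42 and above in 0, where the shares of all genes tested were 9.06% and 6.91%. Their median log2 difference was 1.20 between high dose and model, beside 0.00080 for all genes tested, and -1.02 between model and control, beside -0.010. In the cofactor and adrenaline list, Qdpr, Pts and Cyb561, which supply or regenerate cofactors of TH and DBH, had the highest single-library levels. Cyb561, the vesicle cytochrome that supplies electrons to DBH, stood at 174, 10.97 and 12.5 FPKM in high dose, 11.3, 5.03 and 6.497 in model and 8.59, 34.6 and 16.6 in control, and Qdpr and Pts stood at 34.1 FPKM or more in every library. Pnmt, which makes adrenaline from noradrenaline, reached only 5.13 FPKM, in high dose 2, and stood at 0.828 FPKM or 12 fragments in high dose 1. Of the breakdown enzymes, Maoa stood at 246, 6.75 and 4.67 FPKM in high dose, 6.46, 5.88 and 5.36 in model and 8.36, 42.7 and 18.5 in control. Maob stood at 94.7, 19.05 and 31.3 FPKM in high dose, 14.8, 20.8 and 32.8 in model and 45.96, 45.2 and 35.9 in control.

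Among the sympathetic factors, Hand1 and Gata2 had the highest single-library levels, and model lay below control without overlap in 3 of the 5 tested, against 9.06% of all genes tested. Gata2, a zinc finger factor also found in endothelium, stood at 38.8, 8.17 and 13.03 FPKM in high dose, 11.1, 11.9 and 10.9 in model and 13.5, 31.3 and 13.3 in control, and its groups overlapped between high dose and model. The granule list was led by Pam, Cpe and Scg2, of which Pam and Cpe were abundant in every library, at 44.3 FPKM or more, and Scg2 stood at 155, 5.496 and 1.06 FPKM in high dose, 0.895, 0 and 0.0268 in model and 1.93, 23.95 and 7.56 in control. Of the cotransmitters, Npy, the neuropeptide Y of sympathetic neurons, was the highest, at 1325, 136 and 13.3 FPKM in high dose, 21.1, 1.35 and 4.94 in model and 27.9, 409.97 and 76.4 in control. Cartpt and Gal, which encode neuropeptides, were next, with Gal at 37.5, 0.395 and 0.0963 FPKM in high dose, 0.0677, 0 and 0.0953 in model and 0, 41.4 and 3.304 in control. The log2 difference of Npy was 4.35 ± 1.63 (SE) between high dose and model, with a limma adjusted p = 0.342, and here high dose 3 lay below model 1. Of the nicotinic receptor subunits, which receive preganglionic input in ganglia, Chrna3 stood at 105, 9.14 and 0.108 FPKM in high dose, 0, 0 and 0.0426 in model and 5.08, 25.9 and 5.89 in control. Adrenergic receptors sit on the target cells, and the alpha-2 receptors also on the sympathetic neurons themselves. Of the 7 tested, high dose lay above model without overlap in 1, Adra2c, and below in 1, Adrb3, which is near the shares of 11.7% and 10.9% of all genes tested. Their median log2 differences were -0.087 between high dose and model and -0.14 between model and control. The alpha-2 receptor gene Adra2a stood at 11.6, 2.09 and 0.443 FPKM in high dose, 0.922, 0.832 and 0.491 in model and 0.229, 2.3003 and 1.58 in control, and Adra2c at 4.12, 0.992 and 0.526 FPKM in high dose, 0.148, 0.385 and 0.146 in model and 0.487, 1.63 and 1.28 in control, both highest in high dose 1. Adrb3, the beta receptor of adipocytes, led that list at 14.6, 7.11 and 11.2 FPKM in high dose, 18.2, 82.7 and 77.5 in model and 9.56, 18.8 and 74.4 in control. In the nerve growth factor list, Ngfr, the low-affinity receptor, stood at 243, 30.1 and 0.908 FPKM in high dose, 0.236, 0.756 and 0.703 in model and 11.2, 33.6 and 15.6 in control.

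Markers of the cell types that could hold these genes were set beside them. The 10 neuron markers summed to 3199, 593 and 41.5 FPKM in high dose, 58.1, 18.4 and 24.0 in model, and 262, 1045 and 232 in control, and all 10 reached 1 FPKM in high dose 1, high dose 2 and the control libraries. The 3 cholinergic markers summed to 0.486, 22.9 and 0 FPKM in high dose, 0 in model, and 10.3, 7.03 and 0 in control. Of the 6 adrenal cortex markers, Cyp11b2 was at 0 in every library, and the list summed to 0.813 to 1.26 FPKM in high dose, 1.00 to 2.81 in model and 0.773 to 20.8 in control. The upper end is control 2, where Hsd3b1, a steroid dehydrogenase, stood at 12.3 FPKM on 294 fragments, against at most 1 fragment elsewhere. Star, Cyp11b1, Cyp11a1 and Cyp21a1 were also highest in control 2, at 5.41, 1.79, 1.099 and 0.153 FPKM. There 4 of the 6 markers reached 1 FPKM, against at most 1 in any other library. Control 2 was also the highest control library for each of the 9 genes. High dose 1, the highest library for them, held 1.26 FPKM of the list. Of the 7 markers of glomus cells, the oxygen sensors of the carotid and aortic bodies, Higd1c was at 0 in every library and the list summed to 161 to 230 FPKM in high dose, 125 to 205 in model and 212 to 380 in control, mostly from Epas1 and Kcnk3, which endothelium and other cells also express. The 7 thyroid and parathyroid markers summed to no more than 9.22 FPKM, with Pth at 0 throughout. The 5 markers of pulmonary neuroendocrine cells summed to 41.2, 22.3 and 1.36 FPKM in high dose, 0.705, 0.442 and 0.396 in model and 5.46, 13.5 and 3.204 in control, with high dose 1 highest and model lowest as for the 9 genes. Resp18, which neurons and endocrine cells also express, was most of that sum in high dose 1, high dose 2 and the control libraries and stood at 40.4, 19.7 and 0.255 FPKM in high dose, 0.478, 0.0739 and 0 in model and 4.94, 13.3 and 2.72 in control, and the only 1 of the 5 tested. The part of any of these cell types in the results was not tested.

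**Figure D4:**
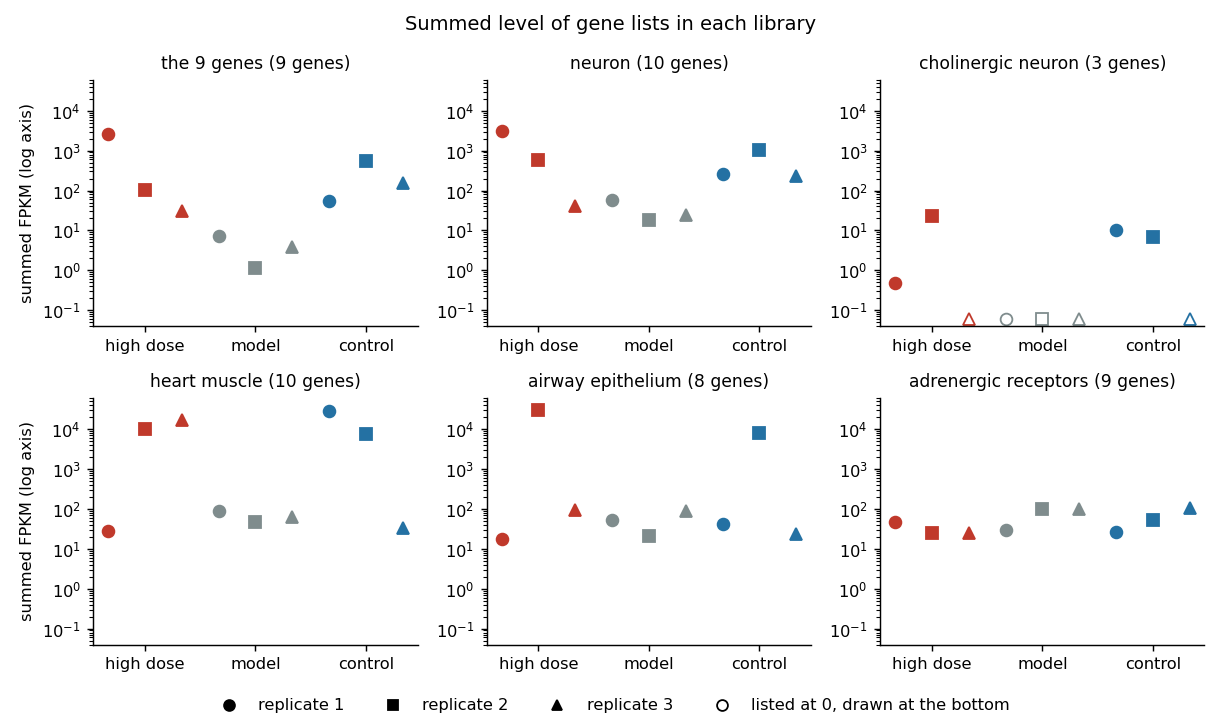
Summed FPKM of 6 gene lists in each library on a log axis, with high dose, model and control from left to right and a marker shape for each replicate number. The neuron list follows the 9 genes in having high dose 1 highest, at 3199 FPKM, while heart muscle genes are at 28.4 FPKM in that library and the adrenergic receptors run from 25.3 to 103 FPKM, with high dose 1 at 45.9.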

How the data were processed

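RNA sequencing of mouse aortic arch gave 9 libraries in 3 groups of 3, grouped by sample title. Columns named AS, HD and Contorl were matched to model, high dose and control titles by name and number. The authors deposited FPKM values, and no counts were used. The submitters' processing notes name GRCm38.p5 and mm10. No aligner, counter or strand option is named in these sources. FPKM is relative to the library total, so abundant genes lower the rest.

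Each comparison used limma 3.58.1 (R 4.3.3) on values of log2(FPKM + 1), a scale that understates changes of low genes, with 9 libraries in 1 fit, an empirical Bayes trend, two-sided, and Benjamini-Hochberg adjustment over 12895 genes with at least 1 FPKM in at least 3 libraries. The fit was tested on simulated data. The check it had to pass used less spread than these libraries have, so it does not describe the power reached here. Relative depth came from low FPKM values shared between libraries, as the commonest ratio, and fragments of a gene are the smallest whole numbers proportional to FPKM times depth, within 0.002. Of 13314 genes under 20 FPKM, 77.9% gave whole fragments with multipliers up to 200. A limit from 0 fragments covers counting error only. As alternatives, each library was left out in turn, the pseudocount was 0.1, the filter was dropped or set to a mean of 5 FPKM or more, size factors by median ratio or array weights were applied, a replicate block was added, or only the 2 groups compared were fitted.

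Named genes are the 9, up to 3 of highest single-library FPKM in each other list, and the 8 most like Dbh or Hand2, and some genes that this rule names are not reported here. Those named for proportions to Th, among them Hand1, Isl1 and Cartpt, and single markers and alpha-2 receptors were chosen after their values were seen, and the limit of 5 FPKM of Th was too. The genes and lists were chosen with earlier results of these data known. Gene positions are from GENCODE release M21. Promoter sequences are from RefSeq on GRCm38.p6. Python 3.11.15 with pandas 2.3.3, numpy 2.4.6 and matplotlib 3.10.9 was used.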

Additional observations from a re-analysis of the deposited data

How the results depend on the processing

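For model against control and for high dose against model, the log2 differences of the 9 genes kept their sign in all 117 values each that the alternatives gave, and 2 and 1 of these passed the threshold where the reported fit did not. For high dose against control, 25 of 117 changed sign. With array weights Phox2a was at -0.15 and Slc6a2 at 0.22. Over left-out libraries the ranges were -2.33 to 1.73 for Th, -2.10 to 1.58 for Ddc, -3.03 to 1.18 for Dbh, -2.67 to 0.84 for Slc18a2, -2.87 to 0.97 for Slc6a2, -0.97 to 1.74 for Phox2a, -0.77 to 1.91 for Chga and -1.24 to 1.80 for Chgb. The genes without overlap between high dose and control numbered 0 to 2 over left-out libraries.

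Genes past the threshold numbered 684 in model against control and 6 in high dose against model with array weights, against 0 in both. Without the filter, 1 gene passed in each comparison with high dose, and with only the 2 groups compared 1 passed in high dose against model. Over left-out libraries high dose against model gave 0 to 46, the upper end without high dose 3. The cause was not tested. Deviations of libraries with the same replicate number correlated at -0.52 to 0.31, and those with different numbers at -0.38 to 0.44. Since these ranges overlap, whether the numbers pair the libraries cannot be decided from them. The replicate block gave 0 genes in all 3 comparisons, as did the reported fit. Few fragments limit the precision of the model values, which rest on 0 to 44 for each of the 9 genes but Hand2 at 215 in model 1. Relative depth was 100%, 80.8% and 71.1% in model 1, 2 and 3, against 76.1%, 56.3% and 61.5% in control 1, 2 and 3.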
